A study of Mus musculus with 24 samples.

Results

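Nr2f1, Nr2f2, Nr2f6, Nr6a1, Nr5a2 and Nr0b1 encode orphan nuclear receptors. These are members of the nuclear receptor family for which no ligand was known when they were found. The 6 genes are grouped for links of their products to the pluripotency factor Oct4 or to its gene, Pou5f1. They are 6 of the 19938 genes measured in P19 cells and were chosen by name, each through the probe set annotated to that gene alone, with its log2 level set against the mean of the EtOH arrays. P19 is a mouse embryonal carcinoma line, a line of malignant stem cells that differentiates when given retinoic acid. The cells were grown as a monolayer on gelatine, in medium whose serum was in part delipidated. There were 24 arrays: 4 of cells given ethanol (EtOH), the control, with no time in their labels, and 1 at each of 2, 6, 24, 48 and 72 h with each of 4 retinoids. These were all-trans retinoic acid (ATRA, 1 µM) and agonists of single retinoic acid receptors (RARs): BMS753 for RARα (1 µM), BMS641 for RARβ (0.1 µM) and BMS961 for RARγ (0.1 µM). The doses differ, so the 1 µM and the 0.1 µM agents are set side by side and not compared. Whether the arrays stem from separate cultures is not in the labels, so the p-values gauge only how far these arrays scatter, which may be technical.

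The products of these genes are linked to Oct4 in different ways, and not all through its gene. Nr2f1 and Nr2f2 encode COUP-TFI and COUP-TFII, which bind hormone response elements of the Oct4 promoter and repress it, and Nr2f6 encodes their relative EAR2. Nr6a1 encodes GCNF, a repressor that silences the Oct4 gene as stem cells differentiate and recruits DNA methylation to it. Nr5a2 encodes LRH-1, an activator that binds the Oct4 promoter. Nr0b1 encodes DAX1, a receptor without a DNA-binding domain of the usual kind, which is abundant in pluripotent cells, binds Oct4 protein and represses the activity of LRH-1.

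The 250 bases before 1 of 2 start sites of Pou5f1 and before the start site of Nr0b1 are shown because both windows hold the hexamer AGGTCA. It is the sequence that nuclear receptors of these families bind as a single copy or as a pair. A further reason is that the transcripts of both genes fell by over 10-fold with ATRA. The sequences are from RefSeq (GRCm38.p6), run 5′ to 3′ on the plus strand, which is the strand of both genes, and have in capitals AGGTCA and GGGTCA, or their reverse complement where the hexamer lies on the other strand.
Pou5f1, chr17:35505782-35506031: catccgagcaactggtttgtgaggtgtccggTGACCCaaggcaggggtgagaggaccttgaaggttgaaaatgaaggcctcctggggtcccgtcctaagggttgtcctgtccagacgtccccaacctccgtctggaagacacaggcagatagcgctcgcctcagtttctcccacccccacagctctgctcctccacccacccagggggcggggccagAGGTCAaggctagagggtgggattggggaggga
Nr0b1, chrX:86191525-86191774: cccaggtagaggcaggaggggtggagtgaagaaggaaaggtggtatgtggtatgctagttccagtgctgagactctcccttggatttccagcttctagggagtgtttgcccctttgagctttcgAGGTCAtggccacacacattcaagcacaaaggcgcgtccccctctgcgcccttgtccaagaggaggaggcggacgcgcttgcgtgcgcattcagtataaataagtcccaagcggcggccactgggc
In the Pou5f1 window shown, AGGTCA began 33 bases before the start site (chr17:35505999-35506004), and GGGTCA lay on the minus strand, 219 bases before it. The window of the other Pou5f1 start site (chr17:35508557-35508806) held neither hexamer. In Nr0b1, AGGTCA began 126 bases before the start site. The same search on both strands found AGGTCA at 1 of 2 start sites of Nr6a1, with 2 copies 91 and 45 bases before the start, and at 1 of 2 start sites of Nr5a2, 64 bases before the start. GGGTCA was found 148 bases before the start of Nr2f6 and 149 bases before that start of Nr5a2. Neither hexamer was in the windows of Nr2f1, which has 2 start sites, or of Nr2f2, which has 1. These letters are common: AGGTCA was in 14.0% and GGGTCA in 11.6% of 32851 RefSeq promoter windows of this length. The LRH-1 type sequences TCAAGGTCA, which contains AGGTCA, and TCAAGGCCA were in 0.387% and 0.511% of windows. Exact direct repeats of AGGTCA with no base between (0.00609%) or with 1 base between (0.0335%) were rarer. None of these 4 longer motifs was, letter for letter, in a window of the 6 genes or of Pou5f1. Imperfect repeats, in which a copy differs from AGGTCA, were not searched for, so their absence is not shown.

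The 4 EtOH arrays differed in pairs by a standard deviation (SD) of 0.0941 to 0.143 log2 units across genes, and no 2 arrays were identical. In EtOH, 8 of the 10 embryonal carcinoma markers lay well above the array medians, which ran from 6.502 to 6.677, among them Pou5f1 at 12.90, Utf1 at 11.81 and Sox2 at 11.53. The other two, Dppa4 at 6.69 and Dppa5a at 5.49, lay near or below them. Over 24 to 72 h of ATRA, 8 of the 10 markers fell and 0 rose (of all genes 36.9% were called there, 3574 as higher and 3788 as lower), and their mean log2 level ran from 6.80 to 9.46 against 10.09 to 10.16 in EtOH. With BMS753 over the same hours 4 of the 10 fell and 0 rose, and the mean ran from 7.97 to 10.18. Markers of other cell types rose with ATRA in the same arrays: 4 of 8 of neural progenitors (mean level 7.99 to 8.99 against 7.14 to 7.17), 5 of 8 of endoderm (7.29 to 7.75 against 6.34 to 6.43), 3 of 8 of neurons (7.58 to 9.40 against 7.62 to 7.69) and 5 of 8 of fibroblasts and smooth muscle, where 1 fell (6.82 to 8.39 against 6.77 to 6.85). The counts of rises compare with 3574 of 19938 genes called as higher, since the 36.9% takes in both directions. Of the 7 mesoderm markers measured, 2 rose and 3 fell (mean level 6.42 to 6.62 against 6.49 to 6.59). With BMS753, where 13.5% of all genes were called, 5 of 8 neural progenitor, 3 of 8 endoderm, 1 of 8 neuron and 1 of 7 mesoderm markers rose, while 2 mesoderm and 1 fibroblast and smooth muscle marker fell. The part of such cells in the results below was not tested, and in these whole cultures fewer cells with a transcript and less of it per cell cannot be told apart.

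Pou5f1 itself set the course beside which the receptors are described. Its level was 12.99, 12.85, 12.89 and 12.88 in the EtOH arrays. With ATRA it was 12.999, 12.96, 12.41, 8.63 and 5.45 at 2, 6, 24, 48 and 72 h, and with BMS753 it was 12.91, 12.85, 12.79, 11.44 and 8.88. The level thus lay below the EtOH range from 24 h on with both, and with BMS753 stood at 72 h about where ATRA had brought it by 48 h. Against the EtOH mean, Pou5f1 was 19.4-fold lower at 48 h and 175-fold lower at 72 h of ATRA, and 2.76-fold and 16.2-fold lower with BMS753. With BMS641 and BMS961 it stayed between 12.78 and 12.94 at every time. Pou5f1-rs4, listed as a related sequence of Pou5f1, has a probe set of its own, which read 4.22 to 4.64 in EtOH and 3.91 to 4.33 with ATRA.

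**Figure D1:**
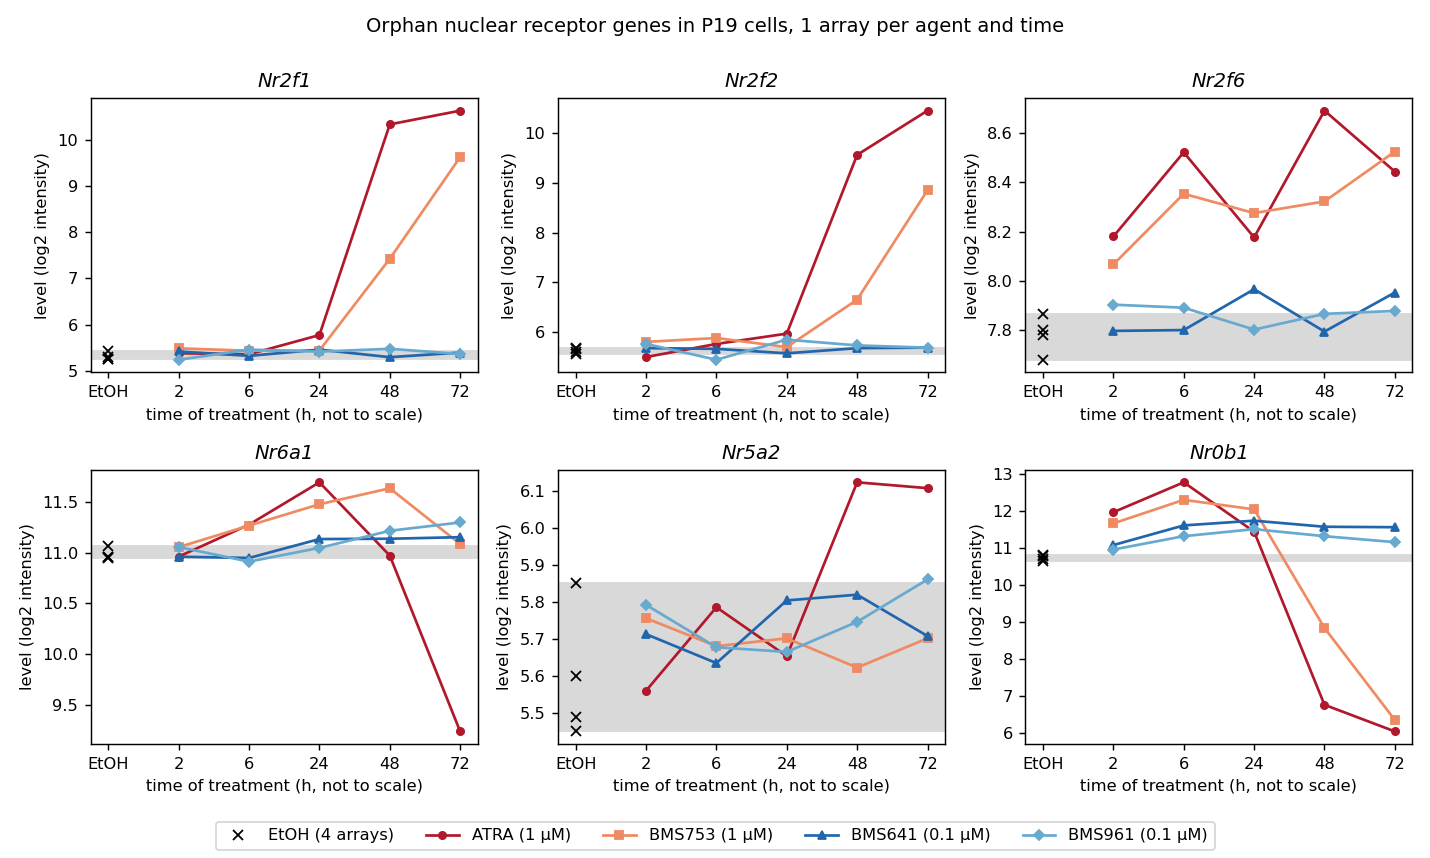
Log2 level of each of the 6 receptor genes on every array, with time of treatment on an axis that is not to scale; crosses are the 4 EtOH arrays, the grey band is their range, and each coloured point is 1 array. Nr2f1 and Nr2f2 climb at 48 and 72 h of ATRA and BMS753, and with these agents Nr0b1 peaks at 6 h and then falls far below the band. The 0.1 µM agents leave the first pair of genes near the band and Nr0b1 above it.

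Averages over time gave 5 of 6 receptor genes called with ATRA over 24, 48 and 72 h (the late phase): Nr2f1, Nr2f2, Nr2f6 and Nr5a2 rose and Nr0b1 fell. Called means a Benjamini-Hochberg adjusted p under 0.05 over all genes in a limma fit. By that rule 36.9% of all genes were called in this comparison, 3574 as higher and 3788 as lower, so many genes besides these moved. The median of the 6 differences was 0.51 on the log2 scale against 0.03 over all genes. With BMS753 late, 1 of 6 was called, against 13.5% of all genes, and the median was 0.50. At 2 and 6 h (the early phase), 1 of 6 was called with ATRA (0.858% of all genes) and 0 of 6 with BMS753 (0.306%), where 1 gene, Nr2f6, had an unadjusted p under 0.05. In each phase the limma fit takes the arrays of an agent as its repeats and removes a time course shared by the 4 agents. A course of ATRA or BMS753 alone therefore widens the standard error (SE) of Nr2f1, Nr2f2, Nr6a1 and Nr0b1. All comparisons with EtOH share the same 4 EtOH arrays.

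Nr2f1 and Nr2f2, the COUP-TF genes, showed the largest rises of the 6, small at 24 h of ATRA and large at 48 and 72 h. Nr2f1 (probe set 10410766; chr13:78188971-78198873) read 5.26, 5.25, 5.43 and 5.30 in EtOH. With ATRA it read 5.38, 5.36, 5.77, 10.33 and 10.63 from 2 to 72 h, and with BMS753 5.49, 5.44, 5.44, 7.42 and 9.62. The 2 and 6 h ATRA arrays lay inside the EtOH range, the 24 h ATRA array and the 2, 6 and 24 h BMS753 arrays lay a little above it, and the 48 and 72 h arrays of both agents lay far above it. The late mean rose with ATRA by 3.60 ± 0.71 (SE) on the log2 scale, 12.1-fold (limma adjusted p = 0.00113, n = 3 and 4, 3 of 3 arrays above EtOH). With BMS753 the late difference was 2.18 ± 0.71, with an adjusted p of 0.0539 that missed the threshold although 3 of 3 arrays lay above EtOH. Without the 24 h arrays that difference was 3.21 ± 0.32 (limma adjusted p = 5.68e-06). The 24 h BMS753 array (5.44) was the late one nearest EtOH, so leaving it out raises the difference by itself and is no separate support.

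Nr2f2 (probe set 10564527; chr7:70351946-70366746) likewise had its high levels at 48 and 72 h of both agents. Its level was 5.59, 5.55, 5.66 and 5.67 in EtOH, 5.49, 5.76, 5.96, 9.57 and 10.46 along the ATRA course, and 5.80, 5.88, 5.69, 6.65 and 8.85 along the BMS753 course. Again the 48 and 72 h arrays stood apart, and at 48 h the ATRA array was the higher by 2.92. The late mean rose with ATRA by 3.05 ± 0.60, 8.26-fold (limma adjusted p = 0.00115, n = 3 and 4), and with BMS753 it differed by 1.45 ± 0.60 (adjusted p = 0.134). Without the 24 h arrays the BMS753 difference was 2.13 ± 0.32 (limma adjusted p = 1.97e-04). Here too the BMS753 array left out (5.69) was the late one nearest EtOH, so the larger difference is no separate support. Both EtOH levels of these COUP-TF genes lie below the array medians. The table holds no detection calls, so folds that start there may be understated.

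At single times, a fit with 1 mean per agent and time judged each lone array by the spread of the EtOH arrays, and called a gene at an adjusted p under 0.05 and at least 2-fold. At 24 h of ATRA both COUP-TF genes stayed under 2-fold but were higher than in EtOH, Nr2f1 by 1.38-fold (limma adjusted p = 0.00416 by the spread of the EtOH arrays) and Nr2f2 by 1.27-fold (adjusted p = 0.0189). By the 2-fold rule Nr2f1 was 32.4-fold higher at 48 h and 39.9-fold at 72 h of ATRA, and 4.33-fold and 19.9-fold with BMS753. The corresponding values of Nr2f2 were 15.4-fold and 28.6-fold with ATRA and 2.05-fold and 9.42-fold with BMS753. Called genes made up 6.42% and 9.58% of all genes at 48 and 72 h of ATRA and 3.13% and 5.83% with BMS753. Between 24 and 48 h of ATRA, Nr2f1 went up 23.5-fold and Nr2f2 12.1-fold from 1 array to the next. With BMS753 the larger step of both lay between 48 and 72 h, 4.59-fold for Nr2f1 and 4.61-fold for Nr2f2. These steps compare single arrays and carry no test.

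With the 0.1 µM agents neither COUP-TF gene left the EtOH level by more than 0.23 on any array. Nr2f1 read 5.30 to 5.46 with BMS641 and 5.24 to 5.48 with BMS961. The Nr2f2 levels ran from 5.57 to 5.68 with BMS641 and from 5.44 to 5.84 with BMS961. Of 5 arrays, Nr2f1 had 4 within the EtOH range with BMS641 and 2 with BMS961. Nr2f2 had 2 within it with BMS641 and 0 with BMS961, where 4 lay above it and 1 below.

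Nr2f6, the EAR2 gene (probe set 10579479; chr8:71374118-71381967), rose by less than 2-fold, and its early mean with ATRA was called as well. The EtOH arrays read 7.78, 7.87, 7.80 and 7.68, the ATRA arrays 8.18, 8.52, 8.18, 8.69 and 8.44, and the BMS753 arrays 8.07, 8.35, 8.28, 8.32 and 8.52. All 5 arrays of each agent, the 2 h arrays included, were above the EtOH range. The rise with ATRA was 0.57 ± 0.11 early (limma adjusted p = 0.0227, n = 2 and 4) and 0.65 ± 0.10 late, 1.57-fold (adjusted p = 1.59e-04, n = 3 and 4). With BMS753 it was 0.59 ± 0.10 late (limma adjusted p = 0.00127), while the early difference of 0.43 ± 0.11 was not called (adjusted p = 0.151). The early call with ATRA was lost without EtOH replicate 1, 3 or 4 (differences of 0.53 to 0.58, limma adjusted p from 0.0553 to 0.0748) and without the 6 h arrays (0.40, adjusted p = 0.982). Both late calls held in all 15 alternative settings. Nr2f6 read 7.79 to 7.97 with BMS641 and 7.80 to 7.90 with BMS961, in part above the EtOH range, and was not called with either.

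**Figure D2:**
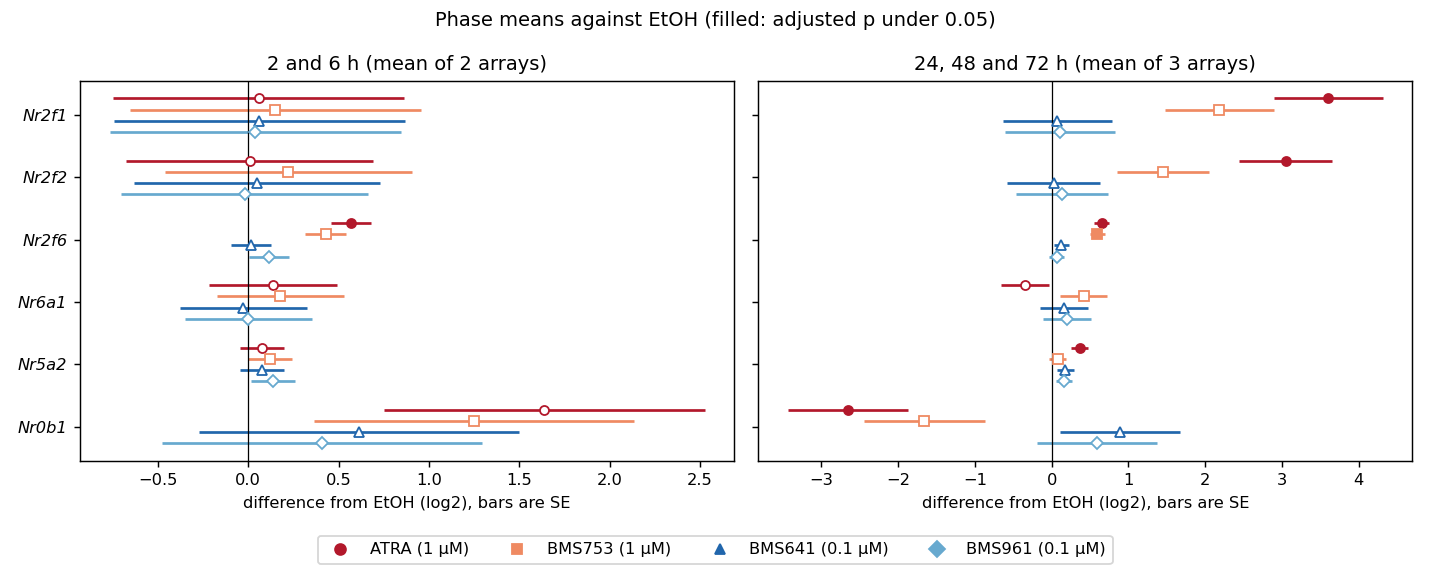
Difference of each phase mean from EtOH (log2, horizontal axis) for the 6 genes, early on the left (2 arrays) and late on the right (3 arrays); bars are 1 SE of the limma fit and filled symbols have an adjusted p under 0.05. Filled symbols are Nr2f6 early with ATRA and, late, 5 genes with ATRA and Nr2f6 with BMS753; the bars of Nr2f6 and Nr5a2 are the short ones.

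Nr6a1, the GCNF gene (probe set 10482249; chr2:38723369-38926461), was above EtOH at 24 h of ATRA and below it at 72 h, and its late mean averaged both. In EtOH it read 10.95, 11.07, 10.96 and 10.95. Along the ATRA course it read 10.96, 11.27, 11.69, 10.97 and 9.24, and along the BMS753 course 11.05, 11.27, 11.47, 11.63 and 11.08. The highest array was thus at 24 h with ATRA and at 48 h with BMS753, and the 72 h ATRA array alone fell below every EtOH array by over 1 log2 unit. Against EtOH, the 24 h ATRA array was 1.64-fold higher (limma adjusted p = 4.01e-07 by the spread of the EtOH arrays) and the 72 h array 3.34-fold lower (adjusted p = 4.96e-12). The 48 h BMS753 array was 1.57-fold higher (limma adjusted p = 6.77e-07), and at 72 h the difference was 0.10 (adjusted p = 0.192).

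The late mean of Nr6a1 differed from EtOH by -0.35 ± 0.31 with ATRA (limma adjusted p = 0.418), with 1 of 3 arrays above the EtOH range and 1 below. Leaving out the 72 h arrays turned this difference to 0.35 ± 0.14 (limma adjusted p = 0.0905), and leaving out the 24 h arrays made it -0.88 ± 0.26 (adjusted p = 0.0126). With BMS753 it was 0.42 ± 0.31 (limma adjusted p = 0.448), and 0.57 ± 0.14 without the 72 h arrays (adjusted p = 0.0301). Pou5f1 was already 1.41-fold lower at 24 h of ATRA (limma adjusted p = 9.46e-06 by the spread of the EtOH arrays), when Nr6a1 was at its highest. At 48 h Pou5f1 was lower still, while Nr6a1 was within the EtOH range (10.97). At 72 h both lay below EtOH. With BMS641 the 24, 48 and 72 h arrays of Nr6a1 read 11.13, 11.14 and 11.15, and with BMS961 they read 11.05, 11.21 and 11.30. At 72 h of BMS961 the difference from EtOH was 0.31 (limma adjusted p = 0.0113 by the spread of the EtOH arrays), or 1.24-fold.

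Nr5a2, the LRH-1 gene (probe set 10358210; chr1:136842562-136960448), had the smallest range of levels of the 6. Its EtOH arrays read 5.60, 5.85, 5.45 and 5.49, the widest EtOH spread of the 6 genes (SD 0.18). The ATRA arrays read 5.56, 5.78, 5.65, 6.12 and 6.11, so that the 48 and 72 h arrays alone lay above the EtOH range. Of the 15 arrays with the other agents, 14 lay within that range, and BMS961 at 72 h (5.86) lay just above it. The late rise with ATRA was 0.36 ± 0.11, 1.29-fold (limma adjusted p = 0.0138, n = 3 and 4). That call was lost without the 48 h arrays (0.28, adjusted p = 0.109), without the 72 h arrays (0.29, limma adjusted p = 0.0952) and with another quantile normalization (0.27, adjusted p = 0.0502). The level of Nr5a2 lies below the array medians throughout, where a probe set can hold little signal.

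Nr0b1, the DAX1 gene (probe set 10600707; chrX:86191775-86195947), had the widest course of the 6 genes with both 1 µM agents, up and then down. The EtOH arrays read 10.70, 10.66, 10.80 and 10.81. With ATRA the arrays read 11.98, 12.78, 11.45, 6.77 and 6.05, and with BMS753 11.67, 12.31, 12.05, 8.85 and 6.36. At 2, 6 and 24 h all 6 of these arrays lay above the EtOH range, and at 48 and 72 h all 4 lay below it by over 1 log2 unit. At single times Nr0b1 was 2.35-fold higher at 2 h and 4.12-fold at 6 h of ATRA, where 0.186% and 0.717% of all genes were called, and 1.63-fold at 24 h, below the 2-fold threshold that 2.10% of genes passed. It was then 15.7-fold lower at 48 h and 25.9-fold lower at 72 h. With BMS753 it was 1.91-fold higher at 2 h, under the 2-fold threshold that 0.0652% of genes passed, and 2.97-fold and 2.48-fold higher at 6 and 24 h, where 0.251% and 0.492% of genes were called. It was 3.72-fold and 20.9-fold lower at 48 and 72 h.

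In phase means, Nr0b1 fell by 2.65 ± 0.78 late with ATRA (limma adjusted p = 0.0147, n = 3 and 4). The call was lost without the 48 h arrays (-1.99, adjusted p = 0.131) and without the 72 h arrays (-1.63, limma adjusted p = 0.0894), which leave the 24 h array, above EtOH, with more weight. With BMS753 the late difference was -1.66 ± 0.78 (limma adjusted p = 0.192), and -3.14 ± 0.34 without the 24 h arrays (adjusted p = 1.22e-05). The 24 h BMS753 array lay above EtOH, so leaving it out deepens the fall by itself. Early, the differences were 1.64 ± 0.89 with ATRA (limma adjusted p = 0.756) and 1.25 ± 0.89 with BMS753 (adjusted p = 0.689), with 2 of 2 arrays above EtOH in both. The SE of the early differences takes in, through the shared spread, the low levels at 48 and 72 h of ATRA and BMS753. Without the 24 h arrays the early rise with ATRA was called (limma adjusted p = 0.025).

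Nr0b1 also stood above EtOH with both 0.1 µM agents, where Pou5f1 passed the single-time threshold at no time, although its 72 h BMS961 array (12.78) lay below the EtOH range. The BMS641 arrays read 11.09, 11.62, 11.75, 11.58 and 11.57 and the BMS961 arrays 10.97, 11.33, 11.52, 11.33 and 11.17. All 10 lay above the EtOH range. The level was highest at 24 h with each agent, and neither course turned down below EtOH. At 24 h Nr0b1 was 2.01-fold higher with BMS641 (limma adjusted p = 2.48e-06 by the spread of the EtOH arrays), the only one of 30 pairs of a receptor gene and a time that passed 2-fold there. Over the 5 times 0.00502%, 0%, 0.0351%, 0.0201% and 0.0150% of all genes were called with BMS641, and without EtOH replicate 1 or 2 the call was lost because the fold came under 2. With BMS961 0 of 30 pairs passed 2-fold, against 0.0201%, 0.0100%, 0.0351%, 0.0401% and 0.0401% of all genes. There Nr0b1 was 1.501-fold to 1.71-fold higher at 6, 24 and 48 h (limma adjusted p from 3.07e-05 to 6.02e-04 by the same spread) and 1.34-fold at 72 h.

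In the fit of phase means, 0 of 6 receptor genes were called with BMS641 or BMS961, late or early, and 0 had an unadjusted p under 0.05. Of all genes, 0% were called with BMS641 in either phase and with BMS961 early, and 0.00502% with BMS961 late. The Nr0b1 differences there were 0.89 ± 0.78 late and 0.61 ± 0.89 early with BMS641, and 0.60 ± 0.78 and 0.41 ± 0.89 with BMS961 (limma adjusted p = 1 in each). Judged by the spread of EtOH alone, Nr0b1 was called in all 4 of these comparisons, from limma adjusted p = 0.00166 with BMS961 early to 1.02e-07 with BMS641 late.

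**Figure D3:**
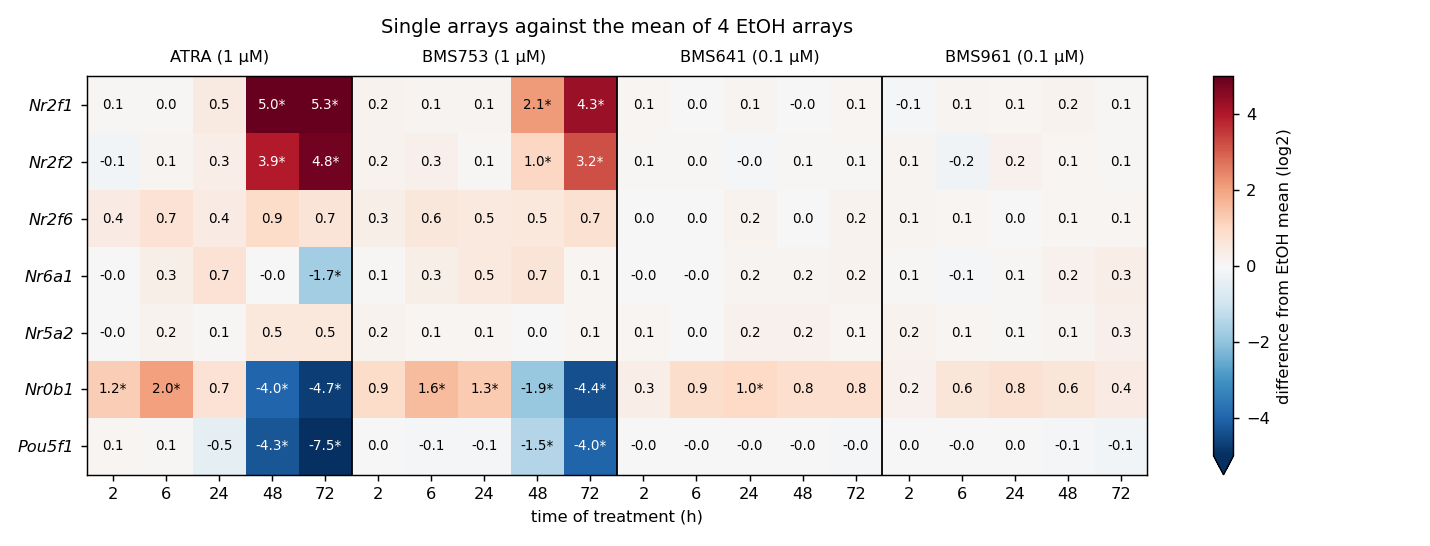
Difference of each array from the mean of the 4 EtOH arrays (log2, colour and printed value) for the 6 receptor genes and Pou5f1, by agent and hours of treatment; asterisks mark an adjusted p under 0.05 with at least 2-fold. Asterisks fill the 48 and 72 h columns of ATRA and BMS753 for Nr2f1, Nr2f2, Nr0b1 and Pou5f1, and 1 stands under the 0.1 µM agents, at Nr0b1 with 24 h of BMS641.

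Within an agent, the late minus the early mean does not use the EtOH arrays. With ATRA 3 of 6 receptor genes were called, against 31.5% of all genes: Nr2f1 rose by 3.54 ± 0.85 (limma adjusted p = 0.00598, n = 3 and 2), Nr2f2 by 3.04 ± 0.72 (adjusted p = 0.00558), and Nr0b1 had a difference of -4.29 ± 0.93 (limma adjusted p = 0.00344). All 3 late arrays lay beyond both early arrays in each case. Without the 2 h arrays Nr2f1 (3.55, limma adjusted p = 0.083) and Nr2f2 (2.91, adjusted p = 0.0902) were no longer called. Without the 6 h arrays none of the 3 was: Nr2f1 3.53 (limma adjusted p = 0.0758), Nr2f2 3.17 (adjusted p = 0.0638) and Nr0b1 -3.89 (limma adjusted p = 0.0757). With BMS753 0 of 6 were called, against 10.8% of all genes, and 2 had an unadjusted p under 0.05: Nr0b1 differed by -2.91 ± 0.93 (limma adjusted p = 0.0587) and Nr2f1 by 2.03 ± 0.85 (adjusted p = 0.134). With BMS641 and BMS961 0 of 6 were called late minus early, as were 0% of all genes, and 0 had an unadjusted p under 0.05. Leaving out the 24 h arrays brought Nr2f1, Nr2f2 and Nr0b1 past the threshold with BMS753, at differences of 3.06, 1.91 and -4.39. With BMS753 the 24 h levels of these genes were near the early ones, so leaving them out widens the differences by itself. The share of all genes called in that setting is not given here.

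ATRA and BMS753 were given at the same dose, and of the 5 times 48 h had the widest gap between their arrays for 5 of the 6 genes, Nr6a1 being the exception. There ATRA read 7.49-fold above BMS753 for Nr2f1, 7.55-fold above it for Nr2f2 and 4.22-fold below it for Nr0b1. By 72 h these gaps had narrowed to 2.01-fold, 3.04-fold and 1.24-fold. For Nr5a2 and Nr2f6 the gap at 48 h was small, 0.50 and 0.37 on the log2 scale, with ATRA the higher. For Nr6a1 the gap opened instead, from 1.58-fold lower with ATRA at 48 h to 3.59-fold lower at 72 h, and for Pou5f1 it grew from 7.02-fold to 10.8-fold lower. At 2 and 6 h no receptor gene differed between the agents by more than 1.39-fold. These gaps are between single arrays.

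Over the late mean, 0 of 6 receptor genes were called between ATRA and BMS753, against 10.4% of all genes, and 3 had an unadjusted p under 0.05. The differences, ATRA minus BMS753, were 1.42 for Nr2f1 (95% interval -0.20 to 3.03, limma adjusted p = 0.227) and 1.60 for Nr2f2 (0.23 to 2.97, adjusted p = 0.115). They were -0.76 for Nr6a1 (-1.47 to -0.06, limma adjusted p = 0.141), 0.29 for Nr5a2 (0.04 to 0.53, adjusted p = 0.11) and -0.997 for Nr0b1 (-2.78 to 0.78, limma adjusted p = 0.447). Nr2f6 had the narrowest interval, 0.06 (-0.16 to 0.29, limma adjusted p = 0.723). Intervals that wide do not show that the agents act alike. Without the 24 h arrays 5 of 6 were called, Nr2f6 being the exception: Nr2f1 at 1.96, Nr2f2 at 2.26, Nr6a1 at -1.25, Nr5a2 at 0.45 and Nr0b1 at -1.19 (limma adjusted p from 8.11e-04 to 0.0428). Leaving that time out widened each of these 5 differences by itself. The share of all genes called in that setting is not given here, so the count is not to be read as particular to these genes. Early, 0 of 6 were called between the agents, as were 0% of all genes, and 0 had an unadjusted p under 0.05. Judged by the spread of EtOH alone, the early Nr0b1 difference of 0.39 was called (limma adjusted p = 0.00359).

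Between the 0.1 µM agents, BMS961 minus BMS641, 0 of 6 were called late or early, as were 0% of all genes, and 0 had an unadjusted p under 0.05. For Nr0b1 the late difference was -0.30 ± 0.84 (95% interval -2.08 to 1.48, limma adjusted p = 1). The BMS641 array of Nr0b1 was nevertheless the higher at 5 of 5 times, by 1.09-fold to 1.32-fold, and the late difference was called when EtOH alone set the spread (limma adjusted p = 0.026).

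**Figure D4:**
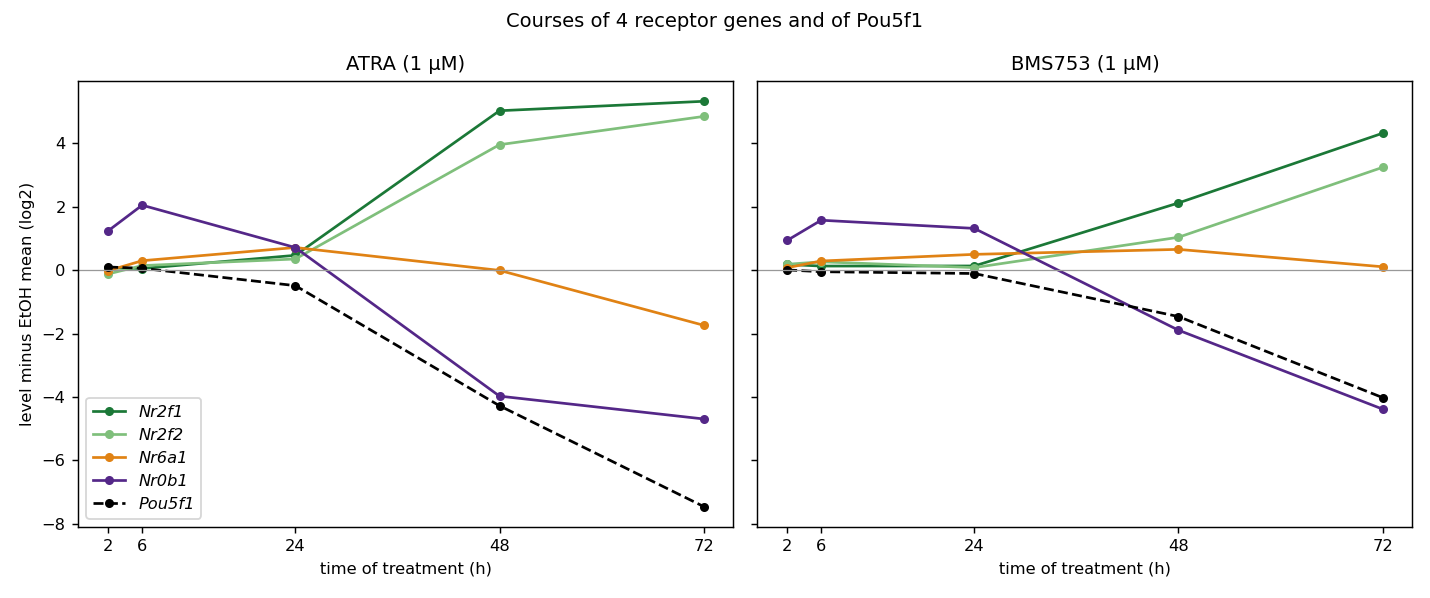
Log2 level minus the EtOH mean against hours of treatment, to scale, for Nr2f1, Nr2f2, Nr6a1 and Nr0b1 (lines) and Pou5f1 (broken line), with ATRA on the left and BMS753 on the right; each point is 1 array. Between 24 and 48 h Pou5f1 and Nr0b1 go down and the COUP-TF genes go up in both panels, each by less with BMS753. Between 6 and 24 h Pou5f1 and Nr0b1 go down as well, by 1.46-fold and 2.52-fold with ATRA. With BMS753 they go down there by 1.04-fold and 1.195-fold.

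The genes with the courses most like these were found by the root mean square (RMS) difference in log2 change over the 20 treated arrays. For Nr2f1, whose own changes had an RMS of 1.96, they were Dach1 (0.43), Car3 (0.44) and Nr2f2 (0.45). For Nr2f2 (RMS 1.60) they were Hoxc6 (0.27), Prss23 (0.27) and Zim1 (0.29). For Nr0b1 (RMS 1.96) the nearest were Eras (0.70), Rxrg (0.71) and Steap3 (0.88), further from it than the neighbours of the COUP-TF genes were from theirs. Rxrg encodes the retinoid X receptor γ, Eras a Ras protein of embryonic stem cells, Hoxc6 and Dach1 transcription factors of patterning.

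The rest of the nuclear receptor family, and genes that work with these receptors, were examined in the same comparisons. Over all genes 36.9% were called late with ATRA and 13.5% with BMS753, and the counts of each list below are to be read against these shares. Of the 17 other orphan receptors measured, late ATRA called 4 as higher and 3 as lower and left 10 uncalled, with a median of 0.06 (all genes 0.03). That count is near the share of all genes. Called genes at least 2-fold from EtOH made up 4.71% of all genes there and 2.07% with BMS753. Past 2-fold were Nr4a2, the Nurr1 gene, which rose by 1.26 ± 0.13 (limma adjusted p = 6.74e-06), and Nr5a1, the gene of steroidogenic factor SF-1 and a close relative of Nr5a2, with a difference of -1.42 ± 0.18 (adjusted p = 5.26e-05). With BMS753, 3 rose and 3 fell (6 of 17, against 13.5% of all genes), none by 2-fold: Nr4a2 by 0.64 ± 0.13, and Nr5a1 with -0.83 ± 0.18. Of the 15 receptors with known ligands that were measured, 4 rose and 1 fell with ATRA, again near the share of all genes, and Pparg, a fatty acid sensor, was the one past 2-fold (1.04 ± 0.19, limma adjusted p = 6.95e-04). Among the 6 retinoid receptor genes, Rarb, a direct RAR target, rose by 4.69 ± 0.13, Rxra by 0.89 ± 0.12 and Rara by 0.45 ± 0.08. Rarg (-1.20 ± 0.26) and Rxrg (-2.78 ± 0.48) fell. Rarb also rose with BMS961 late, by 1.55 ± 0.13 (limma adjusted p = 1.1e-04).

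**Figure D5:**
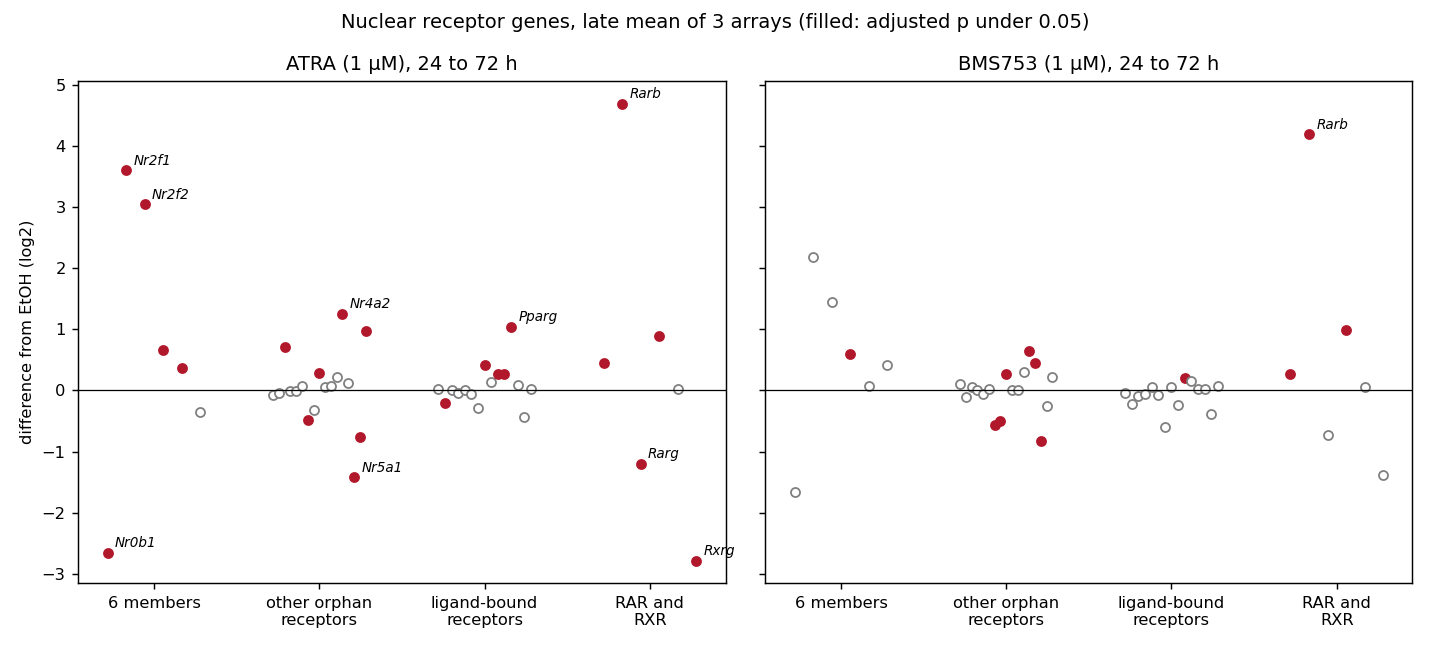
Late difference from EtOH (log2, vertical axis) for the 6 receptor genes, 17 other orphan receptors, 15 receptors with known ligands and 6 retinoid receptors, with ATRA on the left and BMS753 on the right; each point is 1 gene, filled where the adjusted p is under 0.05, and called genes past 2-fold are named. Nr2f1, Nr2f2 and Nr0b1 lie among the points furthest from 0, with Rarb and Rxrg.

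Genes reported as repressed by GCNF are mostly germ cell and pluripotency genes. Late with ATRA, 4 of the 10 listed fell and 0 rose, while 6 passed no threshold, with a median of -0.17. Of all 19938 genes 36.9% were called there, 3574 as higher and 3788 as lower. All 4 that fell did so by at least 2-fold, against 4.71% of all genes called past 2-fold in either direction. Those that fell were Pou5f1 (-4.07 ± 0.81, limma adjusted p = 0.00119), Tdgf1, which encodes the Nodal co-receptor Cripto (-4.87 ± 0.82, adjusted p = 3.42e-04), Fgf4 (-2.21 ± 0.34) and Nanog (-2.15 ± 0.51). All 4 of them are also on the list of embryonal carcinoma markers. Sox2, on the same list, had a difference of -0.34 ± 0.19 (limma adjusted p = 0.172). The other uncalled genes were dim before the late phase. Dppa3, Gdf9, Bmp15 and Prm1 had early ATRA means of 4.99, 5.47, 4.79 and 6.03, below the array medians. Prm2, at 6.84, was near them. A fall from such levels can hardly be seen. With BMS753, Tdgf1 (-2.74 ± 0.82) and Fgf4 (-1.65 ± 0.34) fell.

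Among the 6 measured silencing partners at the Oct4 gene, Dnmt3b, a de novo DNA methyltransferase that GCNF recruits and that stem cells express, fell with ATRA (-3.04 ± 0.39, limma adjusted p = 4.55e-05) and with BMS753 (-1.54 ± 0.39, adjusted p = 0.0167). Mbd2, a reader of methylated DNA, rose with ATRA by 1.12 ± 0.24 (limma adjusted p = 0.00205), and Dnmt3a fell (-0.80 ± 0.24). The other 3 were not called, so 3 of 6 were called with ATRA, against 36.9% of all genes. With BMS753, 1 of the 6 rose and 2 fell, against 13.5% of all genes. Of the 4 COUP-TF partners, Zfpm1, the FOG1 gene, rose with ATRA by 0.90 ± 0.22 and Bcl11b fell (-0.35 ± 0.11), 2 of 4 called. With BMS753, where 13.5% of all genes were called, both Bcl11 genes fell, Bcl11a (-1.26 ± 0.35) past 2-fold. Of 8 pluripotency partners of LRH-1 and DAX1, 3 rose and 2 fell with ATRA: Tbx3 rose by 1.56 ± 0.24 (limma adjusted p = 1.74e-04), while Sall4, a stem cell zinc-finger factor, had a difference of -1.46 ± 0.29 (adjusted p = 0.00108). These 5 of 8 compare with 36.9% of all genes called. With BMS753, 0 rose and 1 fell, against 13.5% of all genes.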

How the data were processed

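Gene expression was measured on 24 Affymetrix Mouse Gene 1.0 ST arrays. Each deposited value is a log2 intensity of a probe set, made with Affymetrix Expression Console 1.1 per the submitters' processing notes. The methods of background correction and normalization are not given in the sources used here, and the log2 scale was judged from the range, 2.859 to 14.3. Of 35556 probe sets, 21789 had 1 gene symbol, 1621 several and 12146 none here. The probe set with the highest mean was kept for each of 19938 genes, and each of the 6 receptor genes has 1 probe set. No filter on low signal was used.

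The main fit used limma 3.58.1 under R 4.3.3 (lmFit, eBayes with trend), two-sided, over all 24 arrays: 1 mean for EtOH and 1 per agent early (2 and 6 h) and late (24, 48 and 72 h), with time terms shared by the 4 agents. The fit had 12 residual and 3.1 prior degrees of freedom. The single-time fit had 3 and 10.3. P-values were adjusted by Benjamini-Hochberg over all genes within a comparison. The fits were tested on simulated data. The 6 genes were named in every comparison. Of a gene list, those called at least 2-fold late with ATRA were named, with Pou5f1, and other genes were added after their values were seen. Of 19938 genes, 3 with the smallest RMS difference were named per receptor gene called 2-fold, predicted and unnamed transcripts passed over. The genes and lists were chosen with earlier results of these data known. Precision is limited by how few arrays there are. Alternatives covered normalization, filter, spread, time terms and left-out arrays. F9 cells and protein sequences were not analysed here.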

Additional observations from a re-analysis of the deposited data

Results flagged for a closer look

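Nr6a1 in EtOH had 1 array apart from the other 3. The highest read 11.07, the next 10.96 and the lowest 10.95, so the gap took up 0.931 of the range, above Dixon's critical value for 4 samples. Chance alone marks about 1 in 20 groups in this way, and 7 genes were examined.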

How the results depend on the processing

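The limits are these: 1 array per agent and time, EtOH arrays with no time, low levels of Nr2f1, Nr2f2 and Nr5a2 in a table without detection calls, and late means that average rising and falling courses. No paired analysis was possible because the treated arrays carry no replicate numbers in the labels, other than pairing by time, which the shared time terms of the fit take in. Of 264 counts of called genes under another setting, 224 stayed within 1.5 times the main count. Of 1400 values of single genes, 1287 kept direction and side of the threshold, 62 newly passed it, 15 no longer did and 36 changed sign. All sign changes were of differences not called in the main fit. The causes were not tested.

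Taking the spread from EtOH alone, which leaves each agent's own course out of it, raised most counts of the 6 genes called. Shares of all genes called under each such setting are not given here. The counts therefore show how the calls depend on the setting, and not a trait particular to these genes. Against EtOH late the count became 5 with BMS753 (Nr2f1, Nr2f2, Nr2f6, Nr6a1, Nr0b1), 1 with BMS641 (Nr0b1) and 2 with BMS961 (Nr6a1, Nr0b1). Early it became 2 with ATRA, 3 with BMS753 and 1 each with BMS641 and BMS961 (Nr0b1). Late minus early it became 5 with ATRA, 4 with BMS753, 1 with BMS641 and 1 with BMS961. ATRA minus BMS753 became 5 late and 1 early, and BMS961 minus BMS641 became 1 late. Fitting only the groups compared gave 5, 1 and 2 late with BMS753, BMS641 and BMS961, 2, 3, 1 and 1 early with ATRA, BMS753, BMS641 and BMS961, and 1 each for ATRA minus BMS753 early and BMS961 minus BMS641 late. Against EtOH this fit takes its spread from EtOH too, so it is no separate check, and late minus early it could not be fitted. Leaving out the dimmest 33.3% of genes, Nr5a2 among them, gave 2 for BMS753 late. Nr0b1 late with ATRA was not called without time terms (-2.65, limma adjusted p = 0.0616).

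Leaving out 1 EtOH array or 1 time gave these lowest and highest counts: ATRA late 3 (without 48 or 72 h) to 6 (without 24 h), BMS753 late 1 to 4 (without 24 h), ATRA early 0 (without EtOH replicate 1, 3 or 4, or 6 h) to 2 (without 24 h), ATRA late minus early 0 (without 6 h) to 5 (without 24 h), BMS753 late minus early 0 to 3 (without 24 h), ATRA minus BMS753 late 0 to 5 (without 24 h), and pairs of gene and time past 2-fold with BMS641 0 (without EtOH replicate 1 or 2) to 1. The shares of all genes called with these arrays left out are not given here either, so the counts are not results about these genes.

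Differences that changed sign ran as follows over the same left-out arrays. With ATRA late, Nr6a1 ran from -0.88 to 0.35. With ATRA early, Nr2f2 ran from -0.12 to 0.14, Nr6a1 from -0.021 to 0.29 and Nr5a2 from -0.038 to 0.19. With BMS641 early, Nr2f6 ran from -0.017 to 0.045 and Nr6a1 from -0.039 to 0.0006. With BMS961 early, Nr2f1 ran from -0.071 to 0.15, Nr2f2 from -0.18 to 0.14 and Nr6a1 from -0.070 to 0.073. For late minus early, Nr2f6 with ATRA ran from -0.085 to 0.26 and Nr6a1 from -1.01 to 0.21. With BMS641 Nr2f1 ran from -0.036 to 0.059 and Nr2f2 from -0.045 to 0.013. With BMS961 Nr2f1 ran from -0.041 to 0.18, Nr2f2 from -0.0071 to 0.31 and Nr5a2 from -0.035 to 0.080. For ATRA minus BMS753, Nr2f6 late ran from -0.090 to 0.14, Nr6a1 early from -0.093 to 0.0092 and Nr5a2 early from -0.20 to 0.11. For BMS961 minus BMS641, Nr2f1 ran from -0.038 to 0.075 late and from -0.18 to 0.14 early, Nr2f2 early from -0.22 to 0.085, Nr6a1 from -0.0042 to 0.11 late and from -0.036 to 0.095 early, and Nr5a2 late from -0.11 to 0.040. Another quantile normalization gave -0.0065 for Nr2f1 late minus early with BMS641 and 0.0062 for Nr5a2 in ATRA minus BMS753 early.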
